A study of Mus musculus with 27 samples.

Results

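The 13726 genes described here are those of 55358 annotated Ensembl mouse genes whose deposited biotype contained the word pseudogene, leaving out 11 with names starting H2-. For comparison, 21834 genes of the tables were protein coding and 9950 were long non-coding RNAs (lncRNA). In the GENCODE vM39 annotation of the same genome build, GRCm39, 9303 of the 13726 were processed pseudogenes, 2032 unprocessed, 931 transcribed processed and 924 transcribed unprocessed pseudogenes. In that release 121 of them had become protein coding and 81 were missing, so the class is called by the deposited biotype throughout.

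Pseudogenes are copies of genes that no longer make the full protein. Processed ones arose when an mRNA was copied back into DNA and landed elsewhere in the genome, so they lack introns and sit far from the gene they came from, whereas unprocessed ones arose by duplication of a stretch of DNA. In the testis they can also be a source of piRNAs, the small RNAs bound by PIWI proteins. A pseudogene lying in reverse inside a piRNA cluster is transcribed as an antisense copy of its source gene. MIWI (the protein of Piwil1), a PIWI protein of mouse pachytene spermatocytes and round spermatids, can cut RNAs that pair with its piRNAs.

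The long RNA data are 18 libraries from testis cells that had been separated by DNA content into spermatids (1n) and spermatocytes (4n), with 3 libraries of each population for wild-type (WT) mice and for the knock-in lines Strep1 and Strep2. Both lines carry a Strep II tag at an internal place near the N-terminus of MIWI, the place differing between the lines, and the WT mice have no tag. Small RNA was sequenced in 5 libraries from tagged MIWI purified from adult Strep1 testes, with no untagged control purification analysed here. The study asked whether genes and repeats are expressed alike in the tagged lines and whether tagged MIWI carries its usual piRNAs. The labels give neither the strain background nor the age of the sorted animals, and do not say whether each library was made from its own animal. The p-values therefore refer to library spread, which may be technical. Estimated depth was 32998174 to 63212556 reads for long RNA and 12025817 to 20751010 reads for MIWI. Values are RPM, reads scaled to the size of the library, counted separately for the strand of the gene (sense) and the other strand (antisense). The 7 spermatid markers summed to between 3694 and 6668 RPM in the 1n libraries and between 116 and 222 RPM in the 4n libraries. The 7 spermatocyte markers summed to between 1469 and 2230 RPM in 4n and between 191 and 232 RPM in 1n libraries. The Sertoli cell list stayed between 4.13 and 9.97 RPM in all 18 libraries, and the peritubular and endothelial list stood at 2.96 to 4.78 RPM in 4n and 14.4 to 21.1 RPM in 1n libraries. The macrophage and blood list stood at 0.718 to 1.20 RPM in 4n and 4.99 to 5.92 RPM in 1n libraries, the spermatogonia list at 4.81 to 8.34 and 6.93 to 11.6 RPM, and the Leydig cell list between 0.716 and 3.30 RPM in all 18. The part of these cells in the differences between 1n and 4n libraries was not tested.

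Of the 13726 pseudogenes, 9380 had any sense long RNA, 7846 any antisense long RNA, 5726 any sense MIWI small RNA and 2123 any antisense MIWI small RNA. Because a read that matches a pseudogene often matches its source gene too, 3448 pseudogenes with signal were aligned to all protein-coding transcripts. A closest gene was found for 3301 of them, at an identity of at least 98% for 1028, of 90 to 98% for 1289 and under 90% for 984.

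For 6 pseudogenes lying opposite a piRNA cluster the 60 bases most like the coding sequence of the closest gene are shown first, because antisense small RNA of the pseudogene reads as the complement of these letters. All are from GRCm39, on the strand of each gene, 5′ to 3′, with capitals at bases where the pseudogene and the gene differ.
Gm12904, chr4:123732346-123732405, plus strand: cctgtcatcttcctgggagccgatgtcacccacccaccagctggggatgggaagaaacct
Ago2, chr15:72988164-72988223, minus strand: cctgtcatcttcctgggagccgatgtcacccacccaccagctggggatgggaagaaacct
Gm7787, chr9:67655656-67655715, minus strand: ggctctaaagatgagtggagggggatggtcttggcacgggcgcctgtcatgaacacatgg
Spin1, chr13:51298418-51298477, plus strand: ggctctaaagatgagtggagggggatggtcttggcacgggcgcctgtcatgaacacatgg
Gm17891, chr17:66534356-66534415, minus strand: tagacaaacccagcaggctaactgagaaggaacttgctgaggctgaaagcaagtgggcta
Pphln1, chr15:93357557-93357616, plus strand: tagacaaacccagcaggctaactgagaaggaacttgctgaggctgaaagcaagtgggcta
Gm7344, chr9:3187293-3187352, plus strand: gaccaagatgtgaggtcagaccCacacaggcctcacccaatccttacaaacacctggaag
Semp2l2a, chr8:13887589-13887648, minus strand: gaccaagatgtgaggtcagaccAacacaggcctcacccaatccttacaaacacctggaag
Gm9731, chr8:27786461-27786520, plus strand: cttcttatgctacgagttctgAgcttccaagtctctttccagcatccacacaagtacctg
Ccnq, chr11:78642048-78642107, minus strand: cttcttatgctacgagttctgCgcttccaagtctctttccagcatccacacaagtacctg
Stambp-ps1, chr6:128424718-128424777, minus strand: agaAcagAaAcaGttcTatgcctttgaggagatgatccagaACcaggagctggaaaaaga
Stambp, chr6:83538869-83538928, minus strand: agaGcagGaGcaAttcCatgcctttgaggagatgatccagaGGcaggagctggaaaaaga
In the first 3 pairs the 60 bases were identical. The longest unbroken identical run in the coding sequence was 62 bases for Gm12904 and Ago2, 116 for Gm7787 and Spin1, 61 for Gm17891 and Pphln1, 49 for Gm7344 and Semp2l2a, and 47 for Gm9731 and Ccnq. Stambp-ps1 and Stambp differed at 7 of the 60 bases, and their longest identical run was 24 bases.

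Pseudogenes carried much of the antisense small RNA that MIWI bound within genes and little of the sense small RNA. Per library they held 45.8% to 48.1% of the antisense RPM of all genes, with a mean of 47.2% ± 0.936 (SD, n = 5), or 7858 ± 377 RPM. On the sense strand they held 2.85% to 3.12%, with a mean of 2.95% ± 0.109 (SD, n = 5), or 1606 ± 250 RPM. In the same libraries protein-coding genes held 21.0% of the antisense and 50.6% of the sense RPM of genes. The 5 antisense shares lay far above the 5 sense shares, with no overlap.

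**Figure D1:**
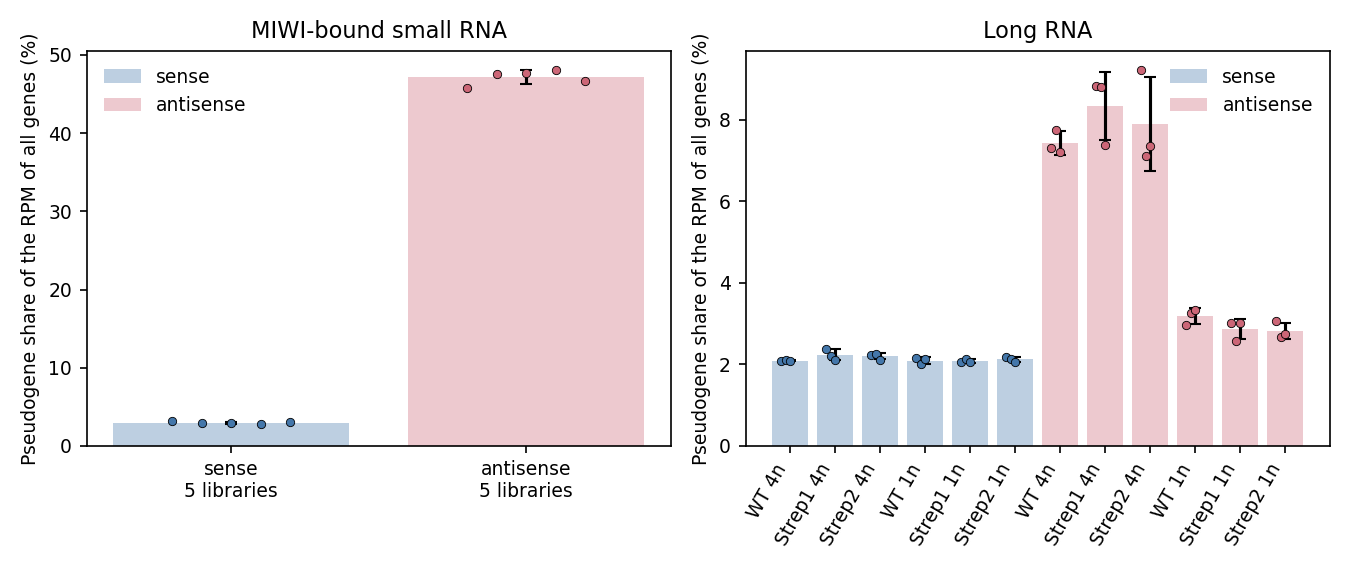
Share of the RPM of all genes that fell on pseudogenes, in percent, for MIWI-bound small RNA (left, 5 libraries a strand) and long RNA (right, 3 libraries a group), with sense in blue and antisense in red. Bars are means, error bars SD and points single libraries; the MIWI antisense share was 47.2% and the sense share 2.95%, and the long antisense share was higher in every 4n library than in every 1n library.

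Few pseudogenes carried this antisense RNA. The 12 highest held 69.9% of it and the 50 highest 98.7%, 108 reached 0.3 RPM in at least 3 libraries, and 11603 were listed at 0 in all 5. Sense small RNA was spread more widely, with 43.9% in the 12 highest and 59.1% in the 50 highest, and 506 pseudogenes reached 0.3 RPM in at least 3 libraries. Both strands were compared within each library for the 587 pseudogenes reaching 0.3 RPM on either strand in 3 or more libraries, using limma (a linear model with moderated variance across all genes) on log2(RPM + 0.1), at a Benjamini-Hochberg false discovery rate (FDR) of 0.05. Antisense was higher for 97 pseudogenes, or 16.5%, where 5.81% of all 9669 genes tested, 3% of protein-coding genes and 27.9% of lncRNA genes had antisense higher. Sense was higher for 482, or 82.1%, against a background of 92.5% of all genes.

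Most of the antisense small RNA of pseudogenes lay opposite piRNA clusters. Of the 13726 pseudogenes, 44 overlapped 1 of 31 deposited clusters on the opposite strand, so that their antisense strand is the strand the cluster is read from. These 44 held 93.3% ± 0.256 (SD, n = 5) of the antisense RPM of pseudogenes. Antisense was higher in 32 of the 32 that were tested, with a median log2 difference of 9.64. Testing required 0.3 RPM on either strand, and most of the 44 had almost no sense small RNA. Those could enter only through antisense, so the filter largely set this count. Another 23 overlapped a cluster on the same strand, and they held 19.6% ± 2.76 (SD, n = 5) of the sense RPM. Sense was higher in 14 of the 14 tested, with a median log2 difference, antisense minus sense, of -5.09. The filter could shape this count in the same way.

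Gm12904 (chr4:123731897-123733295), a copy of Ago2, held the most antisense small RNA of any pseudogene. Its antisense level was 709.6, 1252, 1090, 1206 and 895.4 RPM in libraries 1 to 5, while its sense level was at most 0.05 RPM in each. The log2 difference was 12.93 ± 0.18 (SE, limma, adjusted p = 4.81e-12). Ago2 itself, whose protein is the slicing Argonaute of the siRNA and microRNA pathway, carried 394 ± 33.4 RPM of sense small RNA and 6.41 ± 3.18 RPM of antisense small RNA (SD, n = 5). The copy and the gene were 90.7% identical over the aligned coding bases.

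Gm7787 (chr9:67655359-67656046) is a copy of Spin1, which encodes a reader of histone methylation, and its antisense level was 356.4, 403.2, 381.6, 287.0 and 333.7 RPM. Here the source gene carried more antisense than sense small RNA, at 109 ± 10.9 RPM antisense and 13.3 ± 2.69 RPM sense (SD, n = 5). Gm17891 (chr17:66534244-66535022) is a copy of Pphln1, which encodes periphilin, a partner of the HUSH silencing complex, and held 229.4 to 302.1 RPM antisense in the 5 libraries. Pphln1 had 11.4 ± 0.542 RPM sense and 1.51 ± 0.191 RPM antisense. Stambp-ps1 (chr6:128424047-128425361), a diverged copy of the deubiquitinase gene Stambp, held 68.2, 62.1, 65.5, 49.0 and 67.0 RPM antisense, whereas Stambp held 5.09 ± 1.28 RPM sense and 0.367 ± 0.183 RPM antisense. Reads that match both a copy and its gene were counted in fractions, so the level of one can hold reads of the other.

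Further pseudogenes opposite clusters spanned a wide range. Gm7344, a copy of Semp2l2a, held a mean of 80.2 RPM antisense, and Gm9731, a copy of the cyclin gene Ccnq, held 41.6 RPM. Gm8342, another copy of Ccnq at 92.5% identity, held 9.62 RPM. Of the 44 opposite a cluster, 28 had a mean of at least 10 RPM antisense and 31 of at least 1 RPM. Gm18609 (chr6:128162240-128165840) held 654.0 to 722.1 RPM antisense. In the same cluster, on the cluster strand, 9330102E08Rik held 88.6 to 105.0 RPM of sense small RNA. The closest gene of Gm18609, Arhgap20, aligned to 20.9% of its length at 67.6% identity. Gm43959 held 305.1 to 378.1 RPM antisense.

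A family of related pseudogenes on chromosome 10 held 3397 RPM of antisense small RNA, 43.2% of that of all pseudogenes. It had 19 members between chr10:85545191 and chr10:86493244, and the 160 pairs that aligned over at least 200 bases were 64.2% to 100% identical, with a median of 78.9%. Translated, Gm47366 matched the sperm motility kinase gene Smok3a at 40.4% of 57 residues, and Gm48451 matched Mark4, also a kinase gene, at 41.3% of 46 residues. The 10 members opposite a cluster held 3249 RPM and the 9 others 147.7 RPM. Gm48451 (chr10:86408908-86410111) held 472.7, 462.5, 521.2, 561.7 and 499.3 RPM antisense. Its neighbour Gm48450, 94.3% identical, held 449.1, 419.3, 463.6, 444.4 and 449.0 RPM. Gm48474 held 361.9 to 472.8 RPM, Gm47367 343.1 to 383.5 RPM and Gm48454 228.5 to 309.1 RPM. Gm47366 held 453.6 to 538.2 RPM and Gm47365 248.4 to 291.4 RPM. These last overlap each other, so their reads are in part the same. The family sum and its share hold both, and may count such reads more than once.

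**Figure D2:**
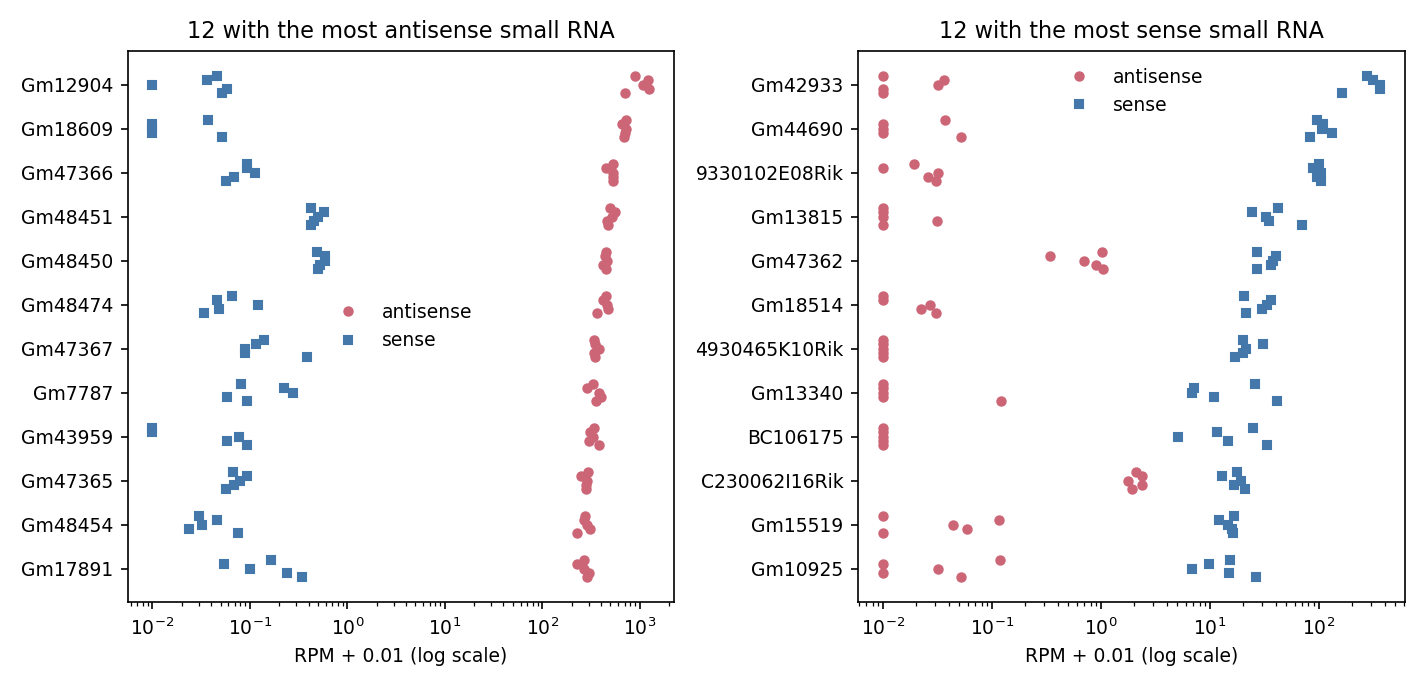
MIWI-bound small RNA, in RPM + 0.01 on a log scale, of the 12 pseudogenes with the most antisense (left) and the 12 with the most sense small RNA (right); circles are antisense and squares sense, 1 of each for each of the 5 libraries. In each of the 24 pseudogenes the strands do not overlap, and Gm12904 leads the left panel with 709.6 to 1252 RPM. The 24 were chosen by a high level on a single strand in these same libraries, which favours such a gap.

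Outside the clusters 12 pseudogenes still had a mean of at least 10 RPM antisense. The highest were Gm47006, a member of the chromosome 10 family, at 94.0 RPM, Gm18637 (chr10:21928150-21930049) at 88.2 RPM, and Gm48465, again of the chromosome 10 family, at 43.1 RPM. ENSMUSG00000118642 (chr17:40159530-40159718), which has no gene name, held 37.5 RPM. Spin3-ps, named as a copy of another spindlin gene, held 16.0 RPM. Gm6605, Gm21136, Gm6124 and Gm9271, all on chromosome 7, held 16.8, 13.9, 14.3 and 10.0 RPM.

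On the sense strand Gm42933 (chr5:102310157-102312225) led with 161.7, 359.2, 361.9, 314.7 and 272.7 RPM. It is 98% identical to a stretch of 2070 bases of transcripts of Nr2c2, an orphan nuclear receptor gene, in a part outside the coding sequence. Nr2c2 itself held 215.6, 335.6, 359.9, 326.5 and 288.8 RPM on its sense strand, library 1 being lowest for both. Gm15519, 97.8% identical to Arfgap2, was likewise a near-copy, with 12.1 to 16.6 RPM. Gm44690 (82.7 to 131.1 RPM), Gm13815 (24.3 to 69.6 RPM) and Gm18514 (20.4 to 36.2 RPM) lie in clusters, on the cluster strand. BC106175 varied from 5.08 to 33.6 RPM. Sense levels of Gm13340 and Gm10925, nuclear copies of mitochondrial genes, ranged from 6.75 to 41.2 and from 6.77 to 26.4 RPM.

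The antisense strands were also found in long RNA, mostly in spermatocytes. Pseudogenes held 7.42% ± 0.296 of the antisense RPM of genes in WT 4n cells, 8.34% ± 0.826 in Strep1 and 7.90% ± 1.15 in Strep2 (SD, n = 3 each). In 1n cells the share was 3.19% ± 0.187, 2.86% ± 0.251 and 2.82% ± 0.200. Much of the 4n share came from ENSMUSG00000118642, at 762 ± 155, 1375 ± 154 and 1298 ± 234 RPM. Without it the shares were 5.54%, 5.06% and 4.81% in 4n and 2.96%, 2.67% and 2.70% in 1n cells. On the sense strand the share lay between 2.08% and 2.23% in all 6 groups.

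The 44 pseudogenes opposite clusters summed to 739 ± 20.6 RPM of antisense long RNA in WT 4n, 732 ± 30.1 in Strep1 4n and 658 ± 10.1 in Strep2 4n cells (SD, n = 3 each). In 1n cells they summed to 71.0 ± 5.95, 69.1 ± 5.70 and 69.5 ± 7.13 RPM. By mean, 43 of the 44 were higher in 4n than in 1n cells. In the 18-library limma fit, 38 were tested and 38 were lower in 1n than in 4n Strep1 cells, where 42.6% of all genes tested were lower. Their median was -5.13 on the log2 scale. Over all pseudogenes tested on that strand the median was -0.81 and over all genes -0.20. Many of the 38 passed the filter of 0.3 RPM in 3 libraries through 4n libraries alone, so the filter in part set this count. Gm48473, for example, had a mean of 3.65 RPM in 4n and 0.00402 RPM in 1n cells. Of a list of 25 piRNA pathway genes 24 were tested on the sense strand, and 19 were lower in 1n cells in each genotype. In WT, Strep1 and Strep2 1, 3 and 2 were higher. On that strand 43.5% of all genes tested were lower in Strep1.

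For Gm12904 the antisense long RNA was 34.6, 26.6 and 28.0 RPM in WT 4n, 30.9, 29.4 and 27.9 RPM in Strep1 4n, and 23.6, 27.1 and 24.8 RPM in Strep2 4n cells. In 1n cells it was 1.21, 0.930 and 1.58 RPM in WT, 0.970, 1.14 and 0.879 RPM in Strep1, and 1.19, 1.60 and 1.57 RPM in Strep2. No 1n library came near a 4n library. The log2 fold change, 1n over 4n, was -4.82 in WT, -5.03 in Strep1 and -4.25 in Strep2, each ± 0.16 (SE, limma, adjusted p = 4.02e-17, 1.80e-17 and 4.91e-16). Gm18609 had the most antisense long RNA of the 44, at 118 to 130 RPM in the group means of 4n cells and 14.4 to 21.3 RPM in single 1n libraries, and its log2 fold change was -3.23 ± 0.11 in Strep1. Gm47367 of the chromosome 10 family changed from 35.1 to 0.0315 RPM in Strep1, or by -8.23 ± 0.16 on the log2 scale (SE, limma, adjusted p = 3.30e-21). Gm47366 changed by -7.37 and Gm7787 by -5.80 in the same line.

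Over the 44, antisense long RNA in Strep1 4n cells and antisense MIWI small RNA ranked alike, with a Spearman correlation of 0.80 across pseudogenes. Sense long RNA and sense MIWI small RNA had a Spearman correlation of 0.59 across 2164 pseudogenes. Pseudogenes are not independent replicates, the points of one strand share libraries and gene length, and no p is given. The 23 pseudogenes in clusters summed to 211 to 232 RPM of sense long RNA in the 4n groups and 86.1 to 92.5 RPM in the 1n groups.

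**Figure D3:**
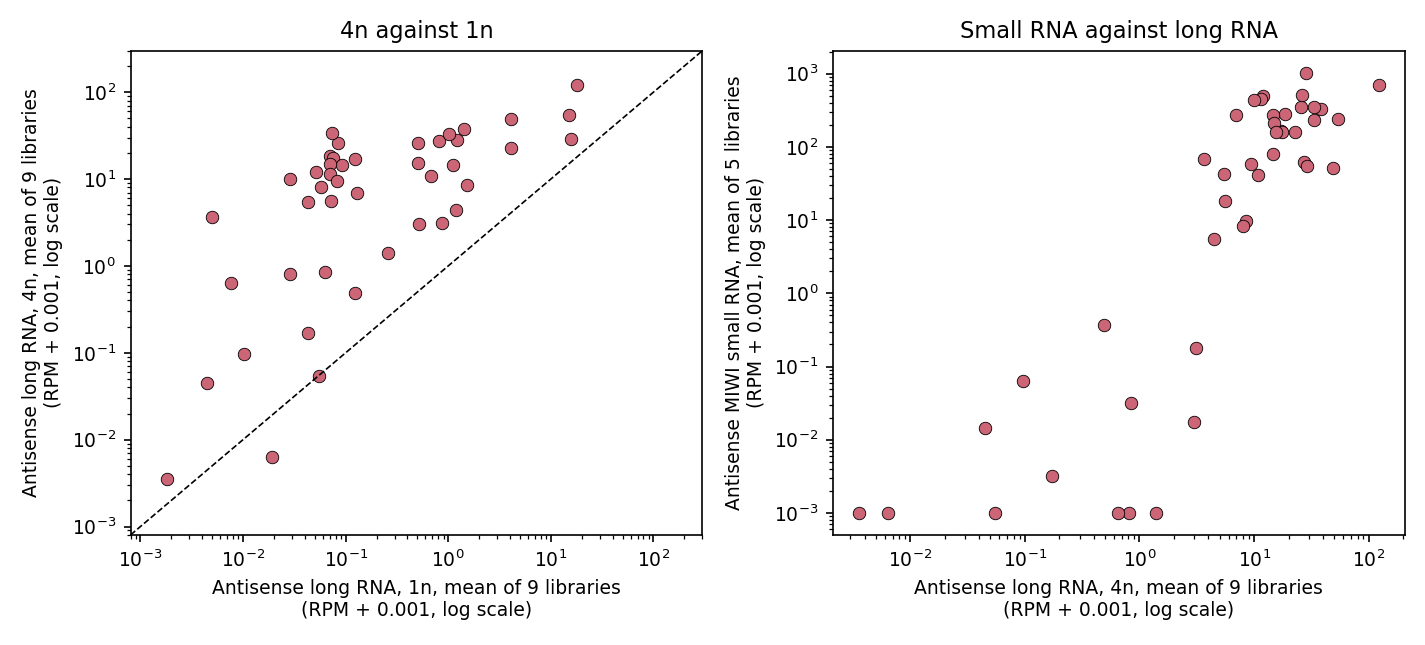
Antisense long RNA of the 44 pseudogenes opposite a piRNA cluster, 4n against 1n cells (left, dashed line of equality), and antisense MIWI small RNA against antisense long RNA in 4n cells (right); axes are RPM + 0.001 on log scales, and each point is 1 pseudogene, as a mean of 9 long RNA or 5 MIWI libraries. On the left 43 of 44 lie above the line, and on the right those with much long RNA are those with much small RNA.

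Most pseudogenes with measurable sense RNA differed between spermatids and spermatocytes, as most genes did. All 18 libraries were fitted together, and 2723 pseudogenes that reached 0.3 RPM in 3 or more libraries were tested. In WT 2105 were called, or 77.3% against 85% of all genes; in Strep1 2084, or 76.5% against 85.1%; and in Strep2 2146, or 78.8% against 85.5%. In all 3 genotypes 1054 were higher in 1n cells, 38.7% against a background of 38.9% of all genes, and 865 were lower, 31.8% against 39.9%. On the antisense strand 340 of 1023 were higher in all 3 genotypes, 33.2% against 33.5%, and 509 were lower, 49.8% against 37.3% of all genes. Called in the single genotypes were 911, 898 and 899 of 1023, or 89.1%, 87.8% and 87.9%, where the backgrounds were 79.3%, 79.2% and 78.6%. The library names form 2 series, and 1n and 4n libraries are of one series in Strep1 alone, so in WT and Strep2 the population and the series cannot be told apart. With bulk RNA, fewer transcribing cells and less RNA per cell cannot be told apart either.

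The kinds of pseudogene were counted by direction in Strep1, where 41.6% of all genes were higher and 43.5% lower in 1n cells. Of 230 tested on the Y chromosome 229 were higher in Strep1 1n cells and 1 lower, and of 186 on the X chromosome 132 were higher and 26 lower. Other genes of these chromosomes did likewise, with 130 of 130 higher on Y and 536 of 564 on X. On autosomes 778 were higher and 918 lower of 2307. Transcribed unprocessed pseudogenes, the duplicates with evidence of RNA, were mostly higher, 314 of 434 with 92 lower and a median log2 fold change of 2.13. This class was not split by chromosome, so the part of X and Y pseudogenes in its count was not tested. Processed ones split into 469 higher and 606 lower of 1570, with a median of -0.17. Of ribosomal protein pseudogenes, 10 were higher and 39 lower of 136, 36% called. Of the 20 tested in clusters 17 were lower, with a median of -4.13. A pseudogene with RNA in a single population could pass the filter only through that population. The filter could therefore shape these counts, those of the Y chromosome and of clusters among them.

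Among those higher in 1n cells, Gm4875, a copy of the actin-binding protein gene Lasp1, went from 0.132 to 9.00 RPM in WT, from 0.207 to 8.69 RPM in Strep1 and from 0.232 to 7.83 RPM in Strep2 as group means. Its log2 fold change was 5.09, 4.63 and 4.36, each ± 0.27 (SE, limma, adjusted p = 2.81e-12, 8.16e-12 and 1.73e-11). Hmgb1-rs17, related to the chromatin protein gene Hmgb1, had a log2 fold change of 4.70 in Strep1, and 1700007E05Rik and Gm5361, both close to Semp2l2a, of 4.66 and 4.37. Gm9220 and Gm6866, on chromosome 7, had 4.39 and 4.41. Gm2803, Gm5334, 1700024J04Rik and Gm12206 had 4.54, 4.47, 4.41 and 4.42. Each of the 10 had 1n libraries above all its 4n libraries in every genotype, as the choice of named genes required.

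Of the 10 largest falls, 4 were of pseudogenes in a cluster. Gm48157, Gm49143 and Gm49148 on chromosome 14, all with Tcp11l1 as closest gene, lie in clusters on the cluster strand and had log2 fold changes of -6.38, -6.12 and -5.68 in Strep1. Gm48157 fell from 13.1 to 0.0835 RPM in Strep1 as group means. Gm47362, Gm48464 and Gm48465 of the chromosome 10 family fell by 6.23, 6.08 and 5.85 on the log2 scale, and all 3 lie outside the deposited clusters. Gm46191, also on chromosome 10, fell by 5.92, Gm47363 by 5.39, Gm47894, in a cluster, by 5.20 and Gm18784, a copy of the kinase gene Wnk1, by 5.14.

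Named for the largest antisense rises in 1n cells were Gm10702, Gm16976, Gm15568 and Gm20763. Gm10702 went from 1.73 to 35.9 RPM in Strep1 (log2 fold change 4.07 ± 0.23, SE, limma, adjusted p = 3.75e-13), and lies within Dcst1, a sperm membrane protein gene, on the other strand. Gm16976, Gm15568 and Gm20763 had log2 fold changes of 4.21, 4.01 and 3.91. Gm16976 fell on its sense strand, from 18.2 to 2.41 RPM in Strep1 (log2 fold change -3.15 ± 0.11, SE), so its strands moved in opposite directions.

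Near-perfect copies led the sense RNA levels. Gm28437, Gm29216, Gm28661 and Gm10925, adjoining copies of mitochondrial genes on chromosome 1 at 99.8% to 100% identity, stood at 168 to 868 RPM in the 4n and 47.1 to 164 RPM in the 1n groups, with Strep1 log2 fold changes from -2.53 to -2.70. Their reads cannot be told from those of the mitochondrial genome. Ubb-ps, a copy of the ubiquitin gene Ubb, stood at 367 to 453 RPM in 4n and 447 to 521 RPM in 1n groups and was not called in any genotype, though with no further scaling it was called higher in Strep1 (0.36, adjusted p = 0.0147, limma). 1700001J11Rik and Gm7444 stood at 430 to 434 and 469 to 482 RPM in 4n groups and at 528 to 584 and 479 to 509 RPM in 1n groups. 1700001J11Rik was called higher in Strep2 (0.22, adjusted p = 0.00617, limma) and not in Strep1 (0.13), where it was called with no further scaling (0.43, adjusted p = 3.55e-04) and with only the groups compared (0.15, adjusted p = 0.0132). Gm7444 was called lower in WT (-0.34) and Strep1 (-0.26), but with no further scaling neither call held, at -0.0068 (adjusted p = 0.950) and 0.03 (adjusted p = 0.750). Ppp1ccb, identical to the phosphatase gene Ppp1cc over its length, stood at 153 to 211 RPM and was not called. With no further scaling it was called higher in Strep1 (0.41, adjusted p = 0.00204, limma) and Strep2 (0.25, adjusted p = 0.0471), and without Strep1 4n replicate 3 it was called higher in Strep1 (0.20, adjusted p = 0.0331). Gm12346, a copy of Hsp90aa1, and Gm12715, a copy of Actg1, were lower in 1n cells by 0.74 and 0.92 on the log2 scale in Strep1. Rnls was lower too (-2.36), BC106175 higher (4.06), Gm17695 higher (3.87), Tubb4b-ps1 higher (0.75) and Gm6652, a copy of Sord, higher (0.40).

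Between 1n and 4n cells, close copies changed in the direction of their gene more often than distant ones. For pairs at 98% identity or more, 660 of 965 had both members called in Strep1, and 646 of these, 97.9%, had the same direction. Between 90% and 98% it was 531 of 616, or 86.2%, and under 90% it was 213 of 366, or 58.2%. The Spearman correlation of the log2 fold changes was 0.93, 0.65 and 0.24 over 965, 969 and 524 pairs. Between Strep1 and WT the Spearman correlation also fell with identity, at 0.45, 0.26 and 0.08 in 4n and 0.62, 0.38 and 0.04 in 1n cells. The few pairs with both members called did not follow that order. Of the pairs at 98% or more with both members called, 3 of 7 had the same direction in 4n and 3 of 7 in 1n cells, or 42.9%, and the 4 opposite ones in each were Gm8210, Gm13841, Gm15454 and Gm14036 with Rpl29. Between 90% and 98% it was 5 of 5 and 6 of 6. Pairs share libraries, and close ones share reads through the fractional counting, so these are descriptions with no p. Hdac1-ps, at 99.4% identity to the histone deacetylase gene Hdac1, stood at 19.4 to 24.6 RPM in the 3 WT 4n libraries and 22.5 to 28.7 RPM in the 3 WT 1n libraries, which overlap. Ppp4r1l-ps, a long diverged copy, stood at 46.8 to 49.9 and 26.4 to 33.3 RPM in the same libraries, which do not.

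**Figure D4:**
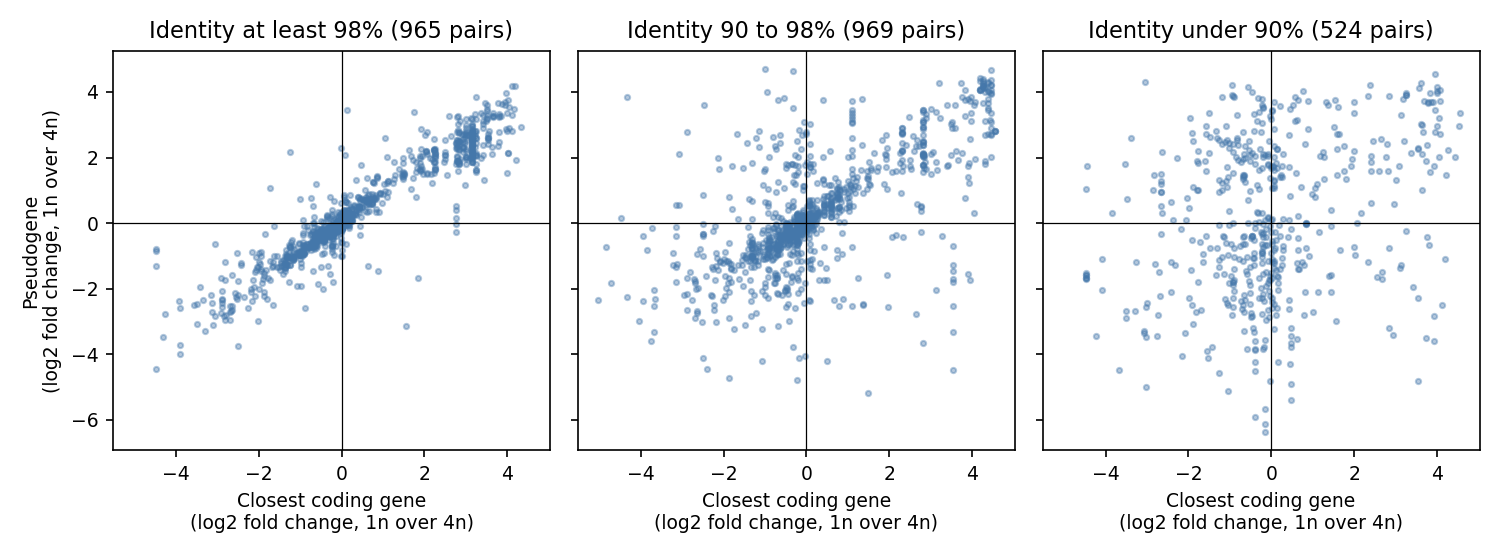
Log2 fold change, 1n over 4n in Strep1, of a pseudogene (vertical) and of its closest protein-coding gene (horizontal), 1 point a pair, in 3 classes of identity. The pairs follow the diagonal at 98% identity or more (965 pairs), less from 90 to 98% (969 pairs), and hardly under 90% (524 pairs).

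Few pseudogenes differed between the tagged lines and WT. For Strep1 24 of 1935 were called in 4n cells, 1.24% against 0.932% of all genes, and 35 of 2333 in 1n cells, 1.5% against 1.34%. Without Strep1 1n replicate 1, 2 or 3 the 1n count was 20, 22 or 18. In 4n cells 13 were higher and 11 lower, where 0.552% and 0.379% of all genes were, and in 1n cells 19 and 16, where 0.643% and 0.696% were. Of these 20 were called in both populations, in the same direction each time, which is 83.3% of the 4n and 57.1% of the 1n calls. In 1n cells the Strep1 and WT libraries are of different series, so the line and the series cannot be told apart there, whereas the 4n comparison lies within 1 series. For Strep2 2 were called in 4n cells, 0.103% against 0.547%, and 4 in 1n cells, 0.171% against 0.105%. The 4n count was 0 without any single Strep2 4n library or without WT 4n replicate 1 or 2, and 1 without WT 4n replicate 3. The 1n count was 1, 2 and 0 without Strep2 1n replicate 1, 2 and 3, and 2 without WT 1n replicate 1. On the antisense strand limma called 3 of 668 for Strep1 in 4n cells, 0.449% against 0.458%, and 4 of 608 in 1n cells, 0.658% against 0.639%. For Strep2 it called 0 and 0, where 0.0483% and 0.108% of all genes were called. There 96 of 668 and 77 of 608 pseudogenes had an unadjusted limma p under 0.05. These are larger shares than the 817 of 8290 and 729 of 9227 of all genes. The median antisense log2 fold change in Strep2 was -0.33 for pseudogenes and -0.10 for all genes in 4n cells. In Strep2 1n cells it was -0.17 and -0.08. For Strep1 it was -0.22 and -0.05 in 4n and -0.20 and -0.08 in 1n cells. The cause of these lower medians was not tested.

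Copies of 1 gene, Rpl29, made up 11 of the 24 Strep1 calls in 4n cells and 11 of the 35 in 1n cells. Rpl29, on chromosome 9, encodes a protein of the large ribosomal subunit, and 34 measured pseudogenes on 15 chromosomes had it as closest gene. In 4n cells 4 were higher, 7 lower and 14 not called of 25 tested, and in 1n cells 4, 7 and 13 of 24. The same 4 were higher in both populations and 6 were lower in both.

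To show how alike they are, 60 bases of the coding sequence (270 to 329, counted from the A of the ATG of Rpl29) are given for the gene, the 4 higher copies and 3 of the lower ones, in GRCm39 on each gene's strand, with capitals at bases that differ from Rpl29.
Rpl29, chr9:106308435-106308494, plus strand: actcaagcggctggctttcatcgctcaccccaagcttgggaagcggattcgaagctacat
Gm8210, higher, chr1:43228585-43228644, plus strand: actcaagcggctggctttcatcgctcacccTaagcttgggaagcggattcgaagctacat
Gm13841, higher, chr5:115939890-115939949, minus strand: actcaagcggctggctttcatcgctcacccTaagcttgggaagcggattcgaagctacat
Gm15454, higher, chr1:134446088-134446147, plus strand: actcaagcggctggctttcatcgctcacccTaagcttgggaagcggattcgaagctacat
Gm14036, higher, chr2:134646135-134646194, plus strand: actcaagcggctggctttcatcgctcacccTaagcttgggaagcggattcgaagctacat
Gm10709, lower, chr9:7751995-7752054, plus strand: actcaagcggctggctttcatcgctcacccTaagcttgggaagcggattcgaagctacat
Gm46203, lower, chr10:116467996-116468055, plus strand: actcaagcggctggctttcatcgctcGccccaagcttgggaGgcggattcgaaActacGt
Gm12447, lower, chr4:46327570-46327629, plus strand: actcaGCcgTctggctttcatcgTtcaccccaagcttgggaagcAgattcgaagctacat
All 4 higher copies had the substitutions C300T and T423C relative to Rpl29, over a coding sequence of 480 bases in which they differed from it at 3 or 4 bases. Neither substitution was particular to them, since 3 of the 7 lower copies had C300T and 6 of the 7 had T423C.

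Gm8210 (chr1:43228316-43228798) stood at 2.48, 1.99 and 2.28 RPM in WT 4n, 2.00, 3.69 and 3.15 RPM in Strep2 4n, and 18.9, 18.5 and 24.1 RPM in Strep1 4n cells. In 1n cells it stood at 2.59, 1.62 and 2.10 RPM in WT, 2.49, 2.54 and 1.83 RPM in Strep2, and 17.6, 24.2 and 18.5 RPM in Strep1. Strep1 libraries lay above all others in both populations. The log2 fold change, Strep1 over WT, was 3.04 ± 0.15 in 4n (SE, limma, adjusted p = 1.02e-06) and 3.17 ± 0.18 in 1n cells (adjusted p = 3.58e-08). Gm13841, Gm15454 and Gm14036 had log2 fold changes of 2.76, 1.65 and 1.33 in 4n and 2.99, 1.70 and 1.43 in 1n cells. The lower copies included Gm17669 on chromosome 18, from 3.49 to 0.272 RPM in 4n cells (-3.36 ± 0.16, SE), Gm12447 (-2.86), Gm10709 (-1.85), Gm46203 (-1.84), Gm47617 (-1.78), Gm13586 (-1.52) and Gm6344 (-0.83).

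Rpl29 itself moved with the lower copies. It stood at 31.8 ± 2.80 RPM in WT 4n, 39.0 ± 8.43 in Strep2 4n and 8.41 ± 1.32 in Strep1 4n cells (SD, n = 3 each), which is -2.0 on the log2 scale for Strep1 (limma, adjusted p = 2.23e-06). In 1n cells it stood at 31.1 ± 3.99, 31.9 ± 1.73 and 7.45 ± 2.54 RPM, a log2 fold change of -2.13 (adjusted p = 1.30e-06). The 4 higher copies summed to 9.79 ± 0.875 RPM in WT 4n and 56.5 ± 8.27 RPM in Strep1 4n cells, and the 7 lower ones to 18.6 ± 1.27 and 5.73 ± 0.902 RPM. Rpl29 and all its copies together came to 88.6 ± 6.87 RPM in WT 4n, 97.9 ± 11.1 in Strep1 4n and 107 ± 22.1 in Strep2 4n cells, ranges that overlap. In 1n cells they came to 75.1 ± 9.43 RPM in WT, 85.4 ± 18.3 in Strep1 and 79.0 ± 7.30 in Strep2. There Strep1 library 2, at 106 RPM, lay above every WT and Strep2 library. Copies and gene share reads, and whether the gene's fall and the copies' rise are 1 event was not tested.

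**Figure D5:**
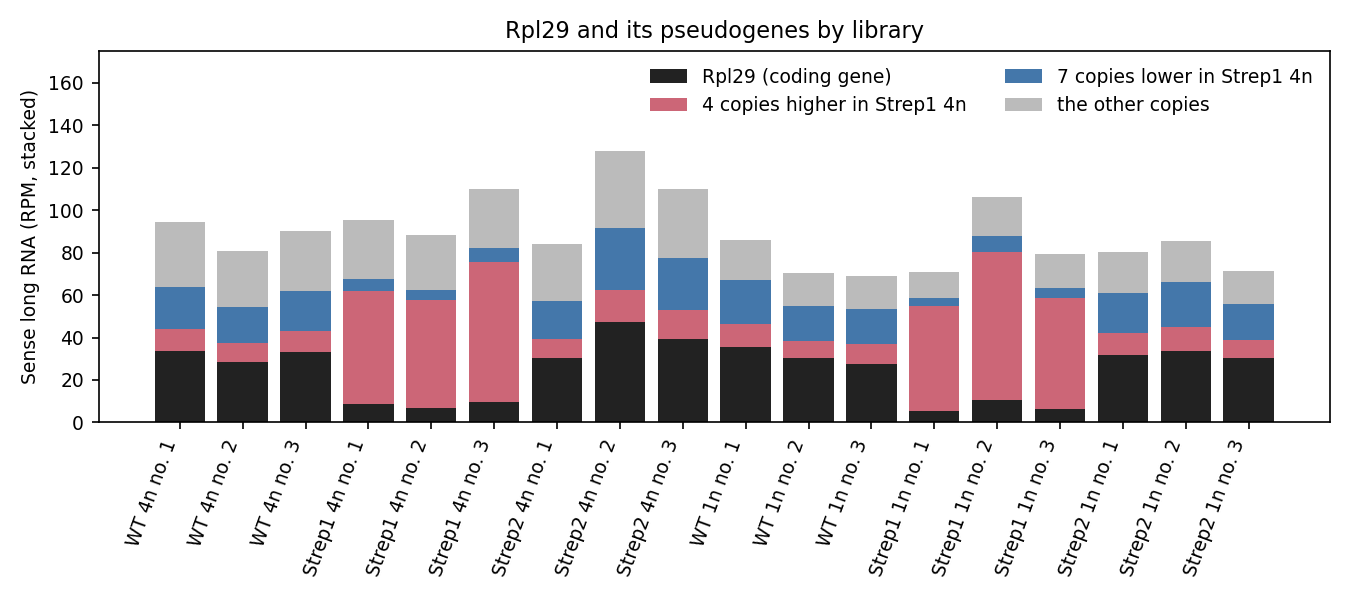
Sense long RNA of Rpl29 and its pseudogenes in each of the 18 libraries, in RPM, stacked from the gene (black) through the 4 copies higher (red) and 7 lower (blue) in Strep1 4n cells to the other copies (grey). In the 6 Strep1 libraries the black and blue parts are small and the red part is large, and the summed height lies within the range of the other libraries' heights.

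After the values were seen, the called pseudogenes were counted by the chromosome of the closest gene, because several of those genes besides Rpl29 lie on chromosome 9. The grouping was thus drawn from the same calls that it counts, so the shares below describe these calls and test nothing. In 4n cells 14 of 136 tested pseudogenes with a closest gene on chromosome 9 were called for Strep1, 10.3%, against 10 of 1799 others, 0.556%. Without the Rpl29 copies it was 3 of 111, or 2.7%. In 1n cells it was 16 of 136, 11.8%, against 19 of 2197, 0.865%, and 4.46% without the Rpl29 copies. For Strep2 it was 0 of 136 in each population. Gm7049, on chromosome 13, is 98.6% identical to Me1, the cytosolic malic enzyme gene on chromosome 9, as these 60 identical bases show.
Gm7049, chr13:62960967-62961026, plus strand: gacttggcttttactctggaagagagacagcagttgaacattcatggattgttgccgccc
Me1, chr9:86561946-86562005, minus strand: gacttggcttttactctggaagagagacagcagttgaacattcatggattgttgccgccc
Gm7049 stood at 19.6, 16.0 and 18.9 RPM in WT 4n, 18.5, 22.5 and 21.9 RPM in Strep2 4n and 39.4, 41.6 and 47.0 RPM in Strep1 4n cells, and the Strep1 libraries did not overlap the others. Its log2 fold change was 1.14 ± 0.07 in 4n (SE, limma, adjusted p = 4.77e-06) and 1.48 ± 0.09 in 1n cells (adjusted p = 1.10e-07). Me1 had a log2 fold change of -0.19 in 4n (adjusted p = 0.154) and 0.09 in 1n cells (adjusted p = 0.667). Gm11868, a copy of the reductase gene Cyb5r4, had 1.21 in 4n and 1.09 in 1n cells, and Oaz2-ps, a copy of an antizyme gene, had 1.03 and 0.89, while Cyb5r4 and Oaz2 were not called. Gm6457, a copy of Rsl24d1, was called in 1n cells (1.32), as was Rsl24d1 itself (1.35). The 1n call of Oaz2-ps was lost without WT 1n replicate 1 or 2 or Strep1 1n replicate 1 or 3 (adjusted p = 0.0550, 0.0655, 0.164 and 0.130).

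Some Strep1 calls were close to on or off. Gm7337 (chr5:87998377-87999501) stood at 14.3, 11.3 and 13.3 RPM in WT 4n, 11.0, 14.6 and 13.9 RPM in Strep2 4n and 0.306, 0.244 and 0.314 RPM in Strep1 4n cells, which differ by -5.16 ± 0.12 on the log2 scale (SE, limma, adjusted p = 1.62e-09), and by -4.51 ± 0.18 in 1n cells. Cfhr3, a relative of complement factor H genes on chromosome 1, was listed at 0 in all 6 Strep1 libraries. In WT it stood at 0.608, 0.787 and 0.785 RPM in 4n and 12.3, 12.6 and 12.0 RPM in 1n cells, and in Strep2 at 0.436 to 0.521 and 14.0 to 14.6 RPM. Gm18015 (chr9:75280066-75280381), which lies in Mapk6 on the same strand, was listed at 0 in the 3 WT 4n libraries and stood at 3.98, 3.83 and 4.33 RPM in Strep1 4n cells. Gm20568, a copy of Ndufs6, went from 0.0462 to 1.46 RPM, C920006O11Rik from 6.66 to 1.61 RPM and Actr3-ps from 1.44 to 3.36 RPM in 4n cells. Gm10499, on chromosome 17, was listed at 0 in WT 4n cells and had a mean of 0.664 RPM in Strep1. Gm16425 (-0.48), Gm9517 (0.69) and Gm2287 (0.95) completed the 4n calls.

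Called in 1n and not in 4n cells were 15 pseudogenes, among them Gm15653, Gm31532, Gm16020, Gm16372 and Btnl5-ps. Gm15653, a copy of Rps2, fell by 1.20 on the log2 scale, Gm31532, a copy of Rab5a, rose by 1.15 and Gm16020, a copy of Rps28, fell by 1.19. Gm16372 and Btnl5-ps rose by 3.58 and 3.21. For Strep2 Gm7868, a copy of Txndc9, was called in both populations. It stood at 1.59, 1.82 and 2.33 RPM in WT 4n and 3.82, 4.80 and 4.80 RPM in Strep2 4n cells, and the log2 fold change was 1.07 ± 0.15 in 4n (SE, limma, adjusted p = 0.0191) and 1.44 ± 0.20 in 1n cells (adjusted p = 0.00666). The 4n call was lost without WT 4n replicate 1 or 2 or any single Strep2 4n library, with adjusted p from 0.0542 to 0.125, and the 1n call without Strep2 1n replicate 3 (adjusted p = 0.0916). Gm19026 in 4n cells (-0.46) and Gm4785, Gm20868 and Gm21806 in 1n cells (2.14, -2.16 and -1.38) were the other Strep2 calls, Gm20868 and Gm21806 both having Gm20806 on the Y chromosome as closest gene. On the antisense strand Strep1 had Gm30708 higher (2.42) and Gm19031 (-4.18) and Gm7337 (-1.79) lower in 4n cells, and Gm15583, Gm13498, Gm10221 and Gm21115 lower in 1n cells (-2.44, -1.94, -1.29 and -1.27). None of the 44 pseudogenes opposite clusters was among the antisense calls.

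The difference between lines in the 1n over 4n change was called for 3 of 2723 pseudogenes for Strep1, 0.11% against 0.258% of all genes, and for 1 for Strep2, 0.0367% against 0.0701%. The Strep1 count was 1 without any single Strep1 1n library. The Strep2 count was 0 without any single Strep2 1n library, 2 without WT 1n replicate 2 and 3 without WT 4n replicate 1. Cfhr3 rose from 4n to 1n cells in WT and Strep2 and was listed at 0 in Strep1, a difference of -3.60 ± 0.22 on the log2 scale (SE, limma, adjusted p = 4.47e-08).

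The authors' deposited tables of line against WT gave 27 of 1774 pseudogenes with an adjusted p under 0.05 for Strep1 in 4n and 41 of 1484 in 1n cells. For Strep2 it was 9 of 708 and 16 of 1734. The share over all their entries is not given here, so whether pseudogenes stand out there was not tested. Of those in the authors' deposited tables, 11, 15, 2 and 2 were also called here, with the same sign in each. The authors' deposited table lists Gm13841 and Gm8210 in 1 entry, with a log2 fold change of 10.02 for Strep1 in 4n cells.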

How the data were processed

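The deposited tables give RPM (reads scaled to library size) for each gene and library, by strand, in long RNA and in MIWI small RNA. Per the submitters' processing notes the build was GRCm39 and the tools included STAR, Bowtie, featureCounts, cutadapt, DESeq2, DESeq and Salmon 1.3.0. Their roles and the library total behind the RPM are not given in the sources used here. Values are fractional, so reads with several matches were split. For depth, 1 read was equated with the low value seen most often in each library. The authors' deposited log2 fold changes and adjusted p-values come from comparison tables, which also hold deposited normalised signal values that were not tested here. Of the deposited value columns, 4 matched no sample and were not used.

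Values were scaled by a trimmed mean of ratios on sense genes (30% of ratios and 5% of levels trimmed at each end), then tested as log2(RPM + 0.1) with limma 3.58.1 in R 4.3.3, over all Ensembl genes with at least 0.3 RPM in 3 libraries. A fold change on that scale understates the change of low genes. Spermatids against spermatocytes used all 18 libraries, lines against WT the 9 of a population, and MIWI strands the difference within each of 5 libraries. Calls had a Benjamini-Hochberg adjusted p under 0.05. The fit was tested on simulated data with noise independent between genes, so reads shared by close copies were not simulated. Of 100 2-fold changes it recovered 58 for Strep1 1n against 4n and 17 for the MIWI strands. For Strep1 against WT it recovered 68 in 4n and 81 in 1n cells. Of 100 4-fold changes it recovered 87, 72, 96 and 96 in the same order, with 14, 4, 11 and 12 false calls. Closest genes came from blastn 2.17.0 (E-value 1e-10) against coding transcripts, in the build of the files.

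Named were the 10 largest sense changes with non-overlapping libraries in each direction, 4 antisense, the 12 highest in MIWI RNA on each strand, the 10 highest in long RNA of each population, the called pseudogenes of the lines, and Stambp-ps1, Hdac1-ps and Ppp4r1l-ps. The members, lists and rules were chosen with earlier results of these data known.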

Additional observations from a re-analysis of the deposited data

Results flagged for a closer look

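In the chromosome 10 family, single libraries stood apart in MIWI antisense small RNA by Dixon's test at 95%. Gm47367 was high in library 3 at 383.5 RPM, Gm47366 was low in library 4 at 453.6 RPM and Gm47365, which overlaps Gm47366, was low in library 4 at 248.4 RPM. These are 3 of 26 groups tested, where chance gives about 1 in 20.

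The change from 4n to 1n cells differed between Strep1 and WT for 3 pseudogenes by the interaction term. The log2 difference, Strep1 minus WT, was -3.60 for Cfhr3, 2.36 for Gm16372 and 2.60 for Btnl5-ps (limma, adjusted p = 4.47e-08, 3.81e-04 and 6.97e-04). For Strep2 it was 2.20 for Gm4785 (limma, adjusted p = 9.11e-05). The 1n and 4n libraries of WT and Strep2 are of different series and those of Strep1 are not, so for Strep1 the line and the series cannot be told apart.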

How the results depend on the processing

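Counts of called pseudogenes followed the filter on low values. With a filter of 1 RPM, 1n against 4n gave 1264, 1253 and 1289 sense and 339, 332 and 335 antisense calls in WT, Strep1 and Strep2, the MIWI strands 215, Strep1 1n antisense 1, Strep2 1n sense 2 and the Strep2 interaction 0. With no filter they were 3674, 3514 and 3575 sense, 2105, 1895 and 1859 antisense and 2032 for MIWI, with Strep1 4n sense at 37, Strep2 1n and 4n sense at 1 and 1, and the interactions at 7 and 6. With no further scaling Strep1 4n antisense gave 6 and Strep2 4n sense 1, and Gm7444 turned to 0.034 in Strep1. Scaling antisense by its own genes, chosen after seeing the data, gave 6 for Strep1 4n antisense. Fitting only the groups compared lowered all the 1n against 4n counts. They were 719, 622 and 590 antisense and 1782, 1772 and 1840 sense in WT, Strep1 and Strep2. The same setting gave 11 for Strep2 4n sense. A pseudocount of 1 gave interactions of 7 and 2. The cause of these moves was not tested.

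Single named calls also ended under these settings, with limma's adjusted p given. With no further scaling they were Gm7444 in WT (0.950), Gm13586 and Gm6344 in Strep1 1n (0.0581 and 0.0578), Gm6344 and Gm16425 in Strep1 4n (0.102 and 0.368) and Gm19026 in Strep2 4n cells (0.283), while Ubb-ps, Ppp1ccb and 1700001J11Rik in Strep1 and Ppp1ccb in Strep2 gained a call. With a pseudocount of 1 they were Gm13586 (0.0650) and Gm20868 (0.0911). With only the groups compared they were Gm16020, Actr3-ps, Gm13586, Oaz2-ps and Gm6344 in Strep1 1n (0.0760, 0.0636, 0.101, 0.0585 and 0.105) and Gm16425 in Strep1 4n cells (0.129), and 1700001J11Rik gained a call in Strep1. With no filter 13 ended, at 0.0650 to 0.183. These were Gm16020, Actr3-ps, Gm13586, Oaz2-ps, Gm6344 and, antisense, Gm21115 in Strep1 1n, Gm16425 and, antisense, Gm7337 in Strep1 4n, Gm20868, Gm21806 and Gm7868 in Strep2 1n, Gm19026 in Strep2 4n, and Gm6652 for 1n against 4n in Strep2.

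Leaving out 1 library at a time gave 2022 to 2072, 1986 to 2050 and 2026 to 2115 sense and 865 to 896, 844 to 882 and 844 to 895 antisense calls for 1n against 4n in WT, Strep1 and Strep2, and 492 to 550 for MIWI. Strep1 sense gave 18 to 40 in 1n and 18 to 22 in 4n cells, Strep2 sense 0 to 5 and 0 to 1, Strep1 antisense 3 to 4 and 2 to 3, and the interactions 1 to 4 and 0 to 3. The MIWI shares moved between 46.9% and 47.5% antisense and 2.91% and 2.98% sense. Of the single named pseudogenes, 57 of 1257 values lost their call and Ppp1ccb in Strep1 gained one; the losses were at Gm6652 (Strep2, 1n against 4n), at Gm10221, Gm21115, Actr3-ps, Gm13586, Gm16020, Gm6344 and Oaz2-ps (Strep1 1n), at Gm7337 antisense and Gm16425 (Strep1 4n), and at Gm20868, Gm21806, Gm7868 and Gm19026 (Strep2).

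The replicate numbers do not pair the libraries. Deviations of same-numbered libraries correlated at -0.346 to 0.351, with a median of 0.0132 over 45 pairs, against 0.0191 over 90 other pairs. With a replicate block, 1n against 4n gave 2105, 2083 and 2147 sense and 913, 897 and 898 antisense calls, Strep1 gave 29 in 1n and 24 in 4n sense and 4 and 4 antisense, and Strep2 gave 4 and 2 sense. MIWI without the block by library gave 578. Under the block Gm13586 and Gm6344 in Strep1 1n, Gm16425 in Strep1 4n and Gm19026 in Strep2 4n cells were no longer called (limma, adjusted p = 0.0768, 0.0609, 0.0711 and 0.0576).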
